A study of Mus musculus with 18 samples.

Results

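Receptors of the tumour necrosis factor (TNF) receptor superfamily were followed across 9 sorted immune cell populations of the mouse. The set held 7 genes, chosen by symbol with earlier results of these data known: Tnfrsf1a, Tnfrsf1b, Ltbr, Fas, Cd27, Tnfrsf9 and Cd40. Each was read by 1 probe set that carried its symbol alone, and none shared a further probe set with another gene, so that the 7 receptors made up 7 of the 24922 probe sets and 7 of the 19752 named genes of the series.

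Cells came from male C57BL/6 mice aged 6 weeks that had received 10000 U of IFNg under the skin, and RNA was taken 2 h later and read on 18 whole-transcript arrays, 2 per population. DC were dendritic cells gated as CD11c+ MHCII+ Flt3+, GN granulocytes gated as Ly6G+, NK natural killer cells gated as NK1.1+ TCRB-, and NKT cells gated as NK1.1+ TCRB+. T4 were CD4+ TCRB+ cells, T8 were CD8+ TCRB+ cells, Tgd were TCRgd+ TCRB- cells and Treg were CD4+ TCRB+ CD25+ cells, and these with DC, GN, NK and NKT were spleen cells. MF were F4/80+ ICAM2+ macrophages of peritoneal lavage, and for them cell type and tissue cannot be told apart. Every animal had received IFNg, and untreated cells were not analysed here, so each value below is a level under the cytokine and not a response to it. The labels do not say whether the 2 arrays of a population came from separate mice, and p-values then measure the spread between arrays, which may be technical.

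These receptors are membrane proteins with cysteine-rich repeats outside the cell, and they signal when a ligand, itself usually a trimer, draws them together. Tnfrsf1a (TNF receptor 1) and Fas carry a death domain inside the cell, through which they can start apoptosis, while Tnfrsf1b (TNF receptor 2), Ltbr, Cd27, Tnfrsf9 (4-1BB) and Cd40 have none and bind TRAF adaptor proteins that lead to NF-kB. In lymphoid tissue Cd27 and Tnfrsf9 are known as costimulatory receptors of T and NK cells, Cd40 as the receptor by which helper T cells license dendritic cells and B cells, and Ltbr as a receptor needed for lymph node and spleen architecture.

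In the RefSeq table for GRCm38.p6, Cd27, Ltbr and Tnfrsf1a were neighbours on chromosome 6, with 1 protein-coding gene between Cd27 and Ltbr and 1 between Ltbr and Tnfrsf1a. Tnfrsf1b and Tnfrsf9 lay on chromosome 4, Fas on chromosome 19 and Cd40 on chromosome 2. Upstream sequence was found for 6 of the 7 genes in RefSeq's GRCm38.p6 promoter table, as 7 windows of 250 bases because Tnfrsf9 had 2 start sites. The windows of 4 genes are printed 5′ to 3′ because these receptors (Tnfrsf1a, Ltbr, Fas and Tnfrsf1b) had their highest population mean in GN. Capitals mark matches, on either strand, to GGGNNNNNCC (an NF-kB-like motif) or GAGGAA (a core of PU.1 sites).
Tnfrsf1a, chr6:125349473-125349722, plus strand: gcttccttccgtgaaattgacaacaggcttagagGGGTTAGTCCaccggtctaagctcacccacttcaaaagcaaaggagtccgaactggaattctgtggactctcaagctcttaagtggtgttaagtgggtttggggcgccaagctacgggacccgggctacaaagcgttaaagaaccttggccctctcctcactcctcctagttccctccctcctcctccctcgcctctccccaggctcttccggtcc
Ltbr, chr6:125313886-125314135, minus strand: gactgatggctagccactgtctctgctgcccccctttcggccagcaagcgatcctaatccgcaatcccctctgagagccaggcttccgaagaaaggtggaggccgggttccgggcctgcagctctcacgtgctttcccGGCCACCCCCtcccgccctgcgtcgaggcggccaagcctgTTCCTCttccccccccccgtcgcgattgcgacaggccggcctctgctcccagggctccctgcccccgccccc
Fas, chr19:34290409-34290646, plus strand: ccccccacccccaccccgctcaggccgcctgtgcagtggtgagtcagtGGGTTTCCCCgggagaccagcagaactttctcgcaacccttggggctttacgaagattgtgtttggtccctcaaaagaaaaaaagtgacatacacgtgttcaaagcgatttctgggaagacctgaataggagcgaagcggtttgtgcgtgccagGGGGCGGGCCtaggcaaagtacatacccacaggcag
Tnfrsf1b, chr4:145246871-145247120, minus strand: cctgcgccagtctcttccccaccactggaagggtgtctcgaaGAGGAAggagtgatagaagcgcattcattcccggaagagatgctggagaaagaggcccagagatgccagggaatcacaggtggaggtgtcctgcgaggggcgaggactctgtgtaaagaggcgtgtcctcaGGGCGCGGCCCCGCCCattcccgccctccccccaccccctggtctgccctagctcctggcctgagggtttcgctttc
For Fas, the last 12 bases of the window were left off because they fell inside the gene's annotated span. The loose NF-kB motif was in 6 of the 7 windows and in 45.8% of all 32851 windows of the table, GAGGAA in 2 (Ltbr and Tnfrsf1b) against 23.3%, and the RUNX motif TGTGGT in 0 against 14.0%. Some matches overlapped, as the NF-kB-like runs of Tnfrsf1b did. Ltbr's window was the richest in G and C of the 7, at 69.2% with 18 CpG pairs, where the median window had 52.4% and 6.0. The windows are given as sequence only, since no binding was measured.

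The arrays were close in overall brightness, with median intensities of 138.5 to 151.0, and values correlated at r = 0.990 to 0.996 within a population and 0.826 to 0.991 between populations. The gate genes Flt3, Itgax, Ly6g, Adgre1, Icam2, Klrb1c, Cd4, Cd8a and Il2ra were each highest in a population they define, while Trdc, for Tgd, had no probe set of its own. Values of DC and T4 that bear on these receptors follow. The labels give no exclusion of CD25+ cells for T4, and Foxp3, the defining factor of regulatory T cells, read a log2 level of 9.97 in T4, 12.01 in Treg and 7.18 in T8. In DC replicate 2, all 12 granulocyte markers tested were at least 2-fold above DC replicate 1, by a median log2 difference of 1.92. Their summed log2 level was 13.09 and 14.91 on the DC arrays, 16.48 to 16.65 on GN and at most 11.36 elsewhere. The same array differed from its partner by log2 0.43 in Fas, 0.43 in Tnfrsf1a, 0.22 in Tnfrsf1b and 0.13 in Ltbr, and by -0.14 in Cd40, so that results on DC are given without it wherever a call changed.

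All 7 receptors differed between the 9 populations, with several kinds of pattern. Tnfrsf1a and Ltbr had higher means in each myeloid than in each lymphoid population, Cd27 and Tnfrsf9 the reverse, and Cd40 was high in DC and MF alone. Fas was highest in GN and lowest in NK, and Tnfrsf1b was nearly even. Levels below are log2 intensities, so that 1 unit is a 2-fold change, and a gene was called when limma's p, adjusted by Benjamini-Hochberg across the 19752 genes, was under 0.05 and the difference was 2-fold or more. In an F test, the range between population means had to be 2-fold or more. The moderated F test over 9 populations called 7 of 7 receptors, where 39.0% of all genes were called. The range between the highest and lowest population mean was 5.70 for Cd27, 4.52 for Fas, 4.51 for Cd40, 3.57 for Tnfrsf1a, 3.39 for Ltbr, 2.86 for Tnfrsf9 and 1.16 for Tnfrsf1b. The median range was 3.57 over the 7 receptors and 0.71 over all genes, and the largest adjusted p of the 7 was 1.95e-07, for Tnfrsf1b. In bulk samples, fewer cells that carry a transcript and less of it per cell cannot be told apart.

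**Figure D1:**
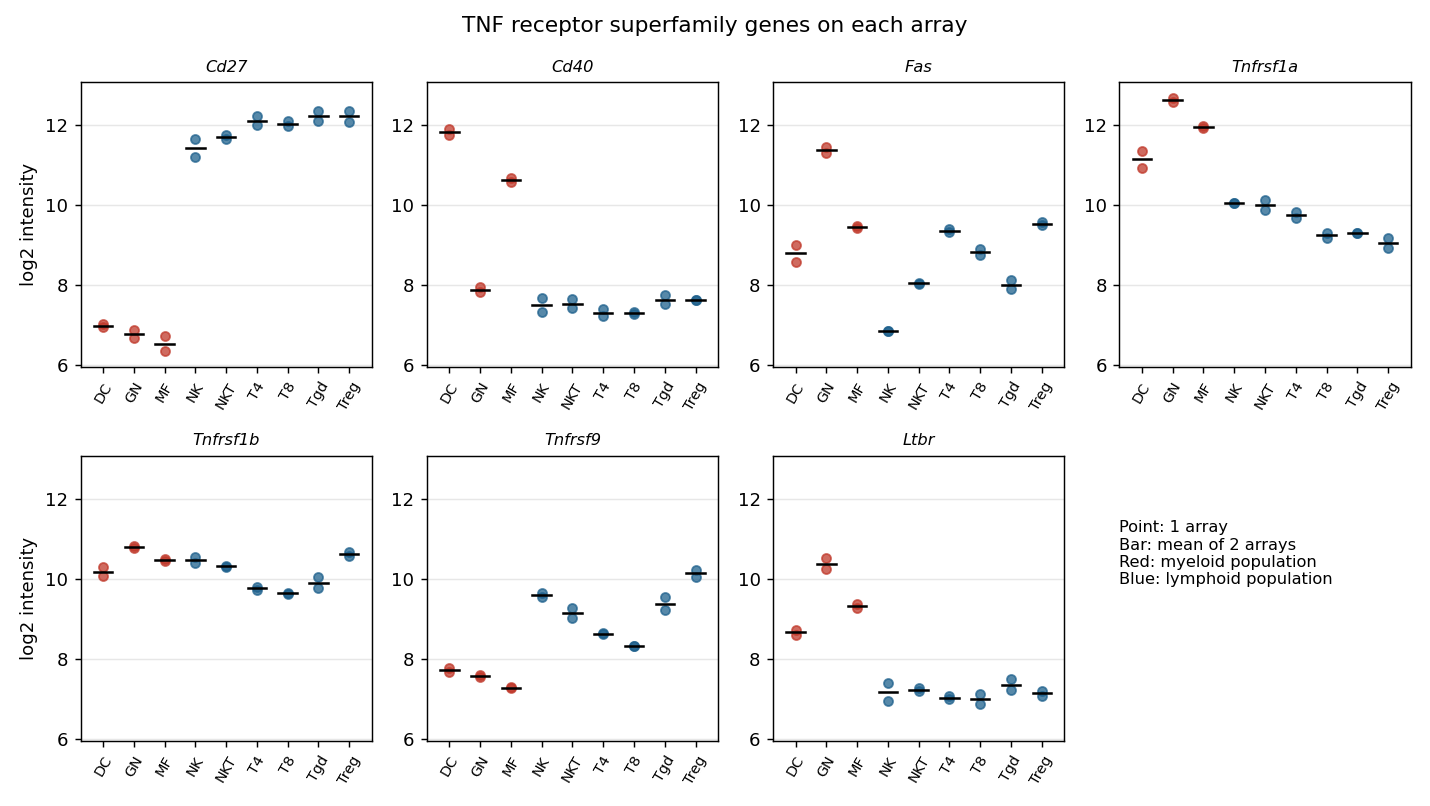
Log2 intensity (vertical axis) of the 7 receptors in 9 populations (horizontal axis), with a point for each array, a bar for the mean of 2 arrays, red for myeloid and blue for lymphoid populations. Cd27 sits between 11.20 and 12.35 on the lymphoid arrays and between 6.34 and 7.02 on the myeloid ones, while Tnfrsf1b spans only 9.62 to 10.83 over all arrays.

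The receptors of TNF and lymphotoxin come first. Tnfrsf1a, the death-domain receptor that carries most of the inflammatory response to soluble TNF, read 12.67 and 12.57 in GN, 11.98 and 11.93 in MF, and 10.92 and 11.36 in DC. Among lymphoid cells it read 10.04 and 10.06 in NK, 9.88 and 10.13 in NKT, 9.82 and 9.68 in T4, 9.31 and 9.31 in Tgd, 9.19 and 9.30 in T8, and 8.92 and 9.18 in Treg. Every myeloid array was above every lymphoid array, and within the lymphoid cells the innate-like NK and NKT were highest and Treg lowest. Along this order GN exceeded MF by 0.66 ± 0.13 (SE) and MF exceeded DC by 0.82 ± 0.13, with adjusted p (limma) of 0.00038 and 8.63e-05 but under 2-fold, and DC exceeded NK by 1.09 ± 0.13 (adjusted p 3.21e-06). Without DC replicate 2 the step from DC to NK shrank to 0.87 and that from DC to NKT from 1.13 to 0.92, both under 2-fold, and the step from MF to DC rose to 1.03 and passed (adjusted p 1.6e-05). The other steps, from NK down to Treg, did not pass on adjusted p. The widest of them was T4 over Tgd, at 0.44 ± 0.13 (limma adjusted p 0.0529), where the arrays did not overlap. The largest lymphoid difference, NK over Treg at 1.00, was just 2-fold.

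Tnfrsf1b, the receptor for membrane-bound TNF that is known for its abundance on regulatory T cells, read 10.83 and 10.77 in GN, 10.57 and 10.68 in Treg, 10.49 and 10.46 in MF, 10.54 and 10.39 in NK, and 10.32 and 10.30 in NKT. It read 10.07 and 10.29 in DC, 10.04 and 9.78 in Tgd, 9.73 and 9.80 in T4, and 9.62 and 9.66 in T8. The means of Treg, NK and NKT lay within the range of the myeloid means, above those of Tgd, T4 and T8, and no step between neighbours in this order passed. Of its 36 pairs of populations only GN over T4 (1.03) and GN over T8 (1.16) passed, where 10.0% of all genes and pairs did. Treg exceeded T4 by 0.86 ± 0.11 (limma adjusted p 9.12e-05), which was 1.81-fold and under the 2-fold limit.

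Ltbr, the receptor for the membrane lymphotoxin heterotrimer and for Tnfsf14 (LIGHT), read 10.51 and 10.24 in GN, 9.37 and 9.28 in MF, and 8.59 and 8.73 in DC. All 12 lymphoid arrays lay between 6.87 and 7.49, near the median of the whole table (7.20), and no neighbours among them differed beyond their spread. Ltbr split the myeloid from the lymphoid cells with no overlap, and it graded within the myeloid cells. GN exceeded MF by 1.05 ± 0.15 (limma adjusted p 1.21e-05), MF exceeded DC by 0.66 ± 0.15 (0.00207, under 2-fold) and DC exceeded the next population, Tgd, by 1.31 ± 0.15 (1.97e-06). Without GN replicate 1 the step from GN to MF was 0.91 and no longer 2-fold. Across the 6 lymphoid populations the F test gave an adjusted p of 0.398.

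Fas, the death receptor by which cytotoxic cells kill and activated lymphocytes are removed, did not follow the myeloid and lymphoid split. It read 11.46 and 11.30 in GN, then 9.49 and 9.57 in Treg, 9.48 and 9.42 in MF, and 9.40 and 9.32 in T4. It read 8.91 and 8.74 in T8, 8.58 and 9.01 in DC, 8.04 and 8.04 in NKT, 7.90 and 8.12 in Tgd, and 6.86 and 6.86 in NK. GN stood alone at the top and NK alone at the bottom, where the level lay below the table median, and CD4+ T cells read as high as macrophages. GN exceeded Treg, the next population, by 1.85 ± 0.13 (limma adjusted p 1.89e-09), and Tgd exceeded NK by 1.15 ± 0.13 (5.45e-06). Treg, MF and T4 did not differ beyond their spread, nor did T8 and DC, nor NKT and Tgd. T4 over T8 (0.53, adjusted p 0.0316) and DC over NKT (0.75, 0.000223) were under 2-fold. Fas passed in 21 of 36 pairs, more than any other of the 7 receptors, where 10.0% of all genes and pairs did.

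The costimulatory receptors of lymphocytes differed from each other. Cd27, which binds Cd70 and supports T cell survival, read 12.11 and 12.35 in Tgd, 12.07 and 12.35 in Treg, 12.22 and 12.01 in T4, and 11.98 and 12.09 in T8. It read 11.65 and 11.74 in NKT, 11.20 and 11.66 in NK, 6.95 and 7.02 in DC, 6.68 and 6.87 in GN, and 6.72 and 6.34 in MF. The lymphoid arrays lay far above the myeloid ones, whose levels were all below the table median. NK, the lowest lymphoid population, exceeded DC, the highest myeloid one, by 4.45 ± 0.16 (limma adjusted p 2.64e-13), and no other step in the order passed. All 18 pairs of a myeloid with a lymphoid population passed, and none of the other 18 did. Over all genes and all 36 pairs, 10.0% passed.

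Tnfrsf9 (4-1BB), which is known to appear on activated T and NK cells and on regulatory T cells, read 10.06 and 10.23 in Treg, 9.55 and 9.63 in NK, 9.21 and 9.55 in Tgd, and 9.02 and 9.28 in NKT. It read 8.65 and 8.62 in T4, 8.32 and 8.31 in T8, 7.78 and 7.67 in DC, 7.54 and 7.59 in GN, and 7.29 and 7.27 in MF. Treg was highest on both arrays, the unconventional lymphocytes came next, and conventional T cells stood between them and the myeloid cells. No single step reached 2-fold, but Treg over NK (0.55 ± 0.12, limma adjusted p 0.00371), NKT over T4 (0.52, 0.00967) and T8 over DC (0.59, 0.00106) passed on p alone. Farther apart in the order, 19 of 36 pairs passed, where 10.0% of all genes and pairs did.

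Cd40 was high in DC and MF, which present antigen to T cells, and low in GN and in every lymphoid population. It read 11.89 and 11.75 in DC, 10.67 and 10.59 in MF, and 7.82 and 7.95 in GN. The 12 lymphoid arrays lay between 7.22 and 7.74. DC exceeded MF by 1.19 ± 0.13 (limma adjusted p 1.08e-06) and MF exceeded GN by 2.74 ± 0.13 (1.33e-11), while GN was above the highest lymphoid population, Tgd, by 0.25 (0.136). B cells also carry Cd40, and the 11 measured B cell markers had their highest summed log2 level in DC, at 12.35 and 12.46. That sum was 11.68 to 11.89 in NK and in Tgd 11.69 to 11.86, populations where Cd40 was low, and it was 9.91 to 9.97 in MF, where Cd40 was high. For single markers the order varied. Mean levels of Ms4a1 were 9.62 in DC, 7.58 in NK and 7.74 in Tgd. Those of Cd79b were 9.82 in DC, 8.95 in NK and 10.42 in Tgd. The markers' part in the DC level of Cd40 was not tested.

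Myeloid and lymphoid cells were compared by the mean of DC, GN and MF against the mean of the other 6 populations. In this contrast of means 4 receptors were called higher in myeloid cells, where 6.39% of all genes were called higher. These were Cd40 by 2.62 ± 0.07 (6.16-fold), Tnfrsf1a by 2.34 ± 0.07 (5.05-fold), Ltbr by 2.30 ± 0.08 (4.93-fold) and Fas by 1.44 ± 0.07 (2.71-fold). The receptors Cd27 and Tnfrsf9 were lower, at -5.19 ± 0.08 and -1.68 ± 0.06, where 4.41% of all genes were called lower. Tnfrsf1b was 1.29-fold higher in myeloid cells and missed the 2-fold limit. Adjusted p-values (limma) of the 6 called ran up to 2.49e-12. The 4 did not share 1 order. For Cd40, GN exceeded Tgd by 0.25, which did not pass (limma adjusted p 0.136). For Fas, MF did not differ from T4 or Treg beyond the spread. DC minus T4 was -0.57 in Fas (limma adjusted p 0.00269) and DC minus Treg -0.73 (0.000295).

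Among the myeloid cells, GN had more death receptor and lymphotoxin receptor and less Cd40 than DC. From DC to GN, Fas rose by 2.59 ± 0.13, Ltbr by 1.71 ± 0.15 and Tnfrsf1a by 1.48 ± 0.13, so that 3 receptors were called higher, where 5.77% of genes were. Cd40 fell by 3.94 ± 0.13 (15.3-fold), the 1 receptor called lower, where 11.1% of genes were. The granulocyte markers of DC replicate 2 moved with Fas and Tnfrsf1a, and so did other lists: from DC replicate 1 to 2 the summed log2 level went from 12.29 to 13.35 for 10 red pulp macrophage markers, 11.76 to 12.61 for 7 monocyte markers and 9.25 to 10.79 for 5 red cell and platelet markers. All 4 calls held without that array. From MF to GN, Fas rose by 1.93 and Ltbr by 1.05 (6.58% of genes called higher) and Cd40 fell by 2.74 (14.1% called lower). Between MF and DC, Cd40 alone passed, lower in MF (4.97% of genes called lower), and 0 were called higher (5.89% of genes), while all 7 had an unadjusted p under 0.05. Tnfrsf1a became a second call, higher in MF, without DC replicate 2, as given above. The 3 comparisons share their arrays.

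Among the 6 lymphoid populations the F test called 3 of 7 receptors, where 9.95% of all genes were called. These were Fas with a range of 2.67 (limma adjusted p 2.29e-10), Tnfrsf9 with 1.83 (2.66e-08) and Tnfrsf1a with 1.00 (1.92e-05). Tnfrsf1a sat at the 2-fold limit: its range was 0.99 after quantile normalization, 0.98 on log2(intensity + 16), 0.99 without NK replicate 3 and 0.87 without Treg replicate 2. Tnfrsf1b, at 0.98 and an adjusted p of 3.08e-06, lay just under it and reached 1.04 after quantile normalization and without Treg replicate 2. Cd27, at 0.80 (0.00291), reached 1.03 without NK replicate 3, and Cd40 (0.33) and Ltbr (0.36) did not pass on p.

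Regulatory T cells differed from T4 in 1 receptor. Tnfrsf9 was higher in Treg by 1.51 ± 0.12 (2.85-fold, limma adjusted p 6.99e-07), with both Treg arrays above both T4 arrays, where 0.521% of all genes were called higher. No receptor was called lower, where 0.354% of genes were, though Tnfrsf1a was 1.63-fold lower in Treg (adjusted p 0.00427) and Tnfrsf1b higher by 1.81-fold. Foxp3 was higher in Treg than in T4 and higher in T4 than in T8, at the levels given above, and its part in these differences was not tested. Cd27, Fas, Ltbr and Cd40 differed by 0.10, 0.17, 0.11 and 0.31, with adjusted p from 0.333 to 0.856.

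T8 and T4 showed no receptor past both limits, with 0 higher (0.425% of genes) and 0 lower (0.537%) by limma, and 3 of 7 with an unadjusted p under 0.05. Fas (-0.53, adjusted p 0.0316) and Tnfrsf1a (-0.51, 0.0434) were lower in T8 by less than 2-fold. NK differed from T8 in 2 receptors. Tnfrsf9 was higher in NK by 1.28 ± 0.12 (3.11% of genes called higher), and Fas was lower by 1.97 ± 0.13, or 3.92-fold (2.27% called lower), with adjusted p (limma) of 4.6e-07 and 3.84e-09.

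NKT cells, which share markers with both NK and T cells, lay between them for Fas. They exceeded NK by 1.18 ± 0.13 (limma adjusted p 4.2e-06), the 1 receptor called higher where 1.51% of genes were, and 0 were called lower where 2.16% were. Against the mean of T4 and T8 they were lower in Fas by 1.05 ± 0.12 (3.22e-06), the 1 receptor called lower where 1.20% of genes were, and 0 were higher where 1.68% were. Taken singly, NKT minus T4 was -1.32 in Fas and passed, while NKT minus T8 was -0.79, under 2-fold. Tgd cells had a similar place: Fas was lower than the mean of T4 and T8 by 1.08 ± 0.12 (5.65e-06), where 0.309% of genes were called lower. Without Tgd replicate 2 that difference was -0.97 and no longer 2-fold. Singly, T4 minus Tgd was 1.35 in Fas and passed, while T8 minus Tgd was 0.82, under 2-fold. No receptor was called higher in Tgd, where 1.16% of genes were, but Tnfrsf9 was 1.87-fold higher (2.04e-05) and reached 1.00 after quantile normalization and 1.07 without Tgd replicate 2.

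**Figure D2:**
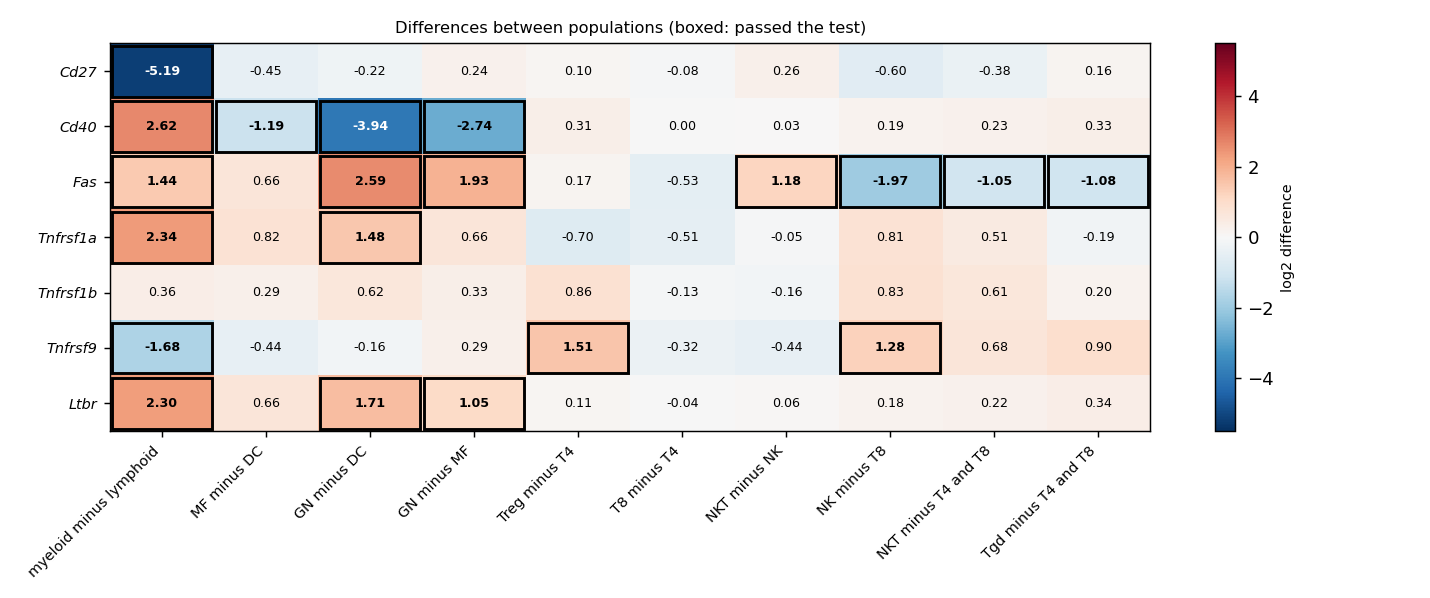
Log2 differences (colour and printed value) of the 7 receptors (rows) in 10 comparisons of populations (columns), with boxes around those that passed both limits. Boxes fill most of the myeloid against lymphoid column, while among lymphoid comparisons they fall on Fas and Tnfrsf9 only.

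Across the 9 population means, Tnfrsf1a and its neighbour Ltbr had the highest correlation of any pair of the 7 receptors (r = 0.96), and Cd27, the third gene of the chromosome 6 group, ran opposite to both (r = -0.94 with Tnfrsf1a and -0.93 with Ltbr). These are descriptions over 9 points that share the myeloid and lymphoid split. Over the 6 lymphoid populations alone, Tnfrsf1a and Ltbr had r = 0.10, Cd27 and Tnfrsf9 went from 0.84 to -0.06, and Cd27 and Tnfrsf1a kept -0.84. Tnfrsf9 and Tnfrsf1b went from -0.03 over all populations to 0.89 among lymphoid cells, both being highest there in Treg and lowest in T8.

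The genes whose 9 population means were most like each receptor's, among those that passed the F test over 9 populations, were listed by Pearson r as a description. For Cd27 they were Prkcq (r = 0.999), a kinase of T cell receptor signalling, Skap1 and Cd96 (both 0.997). For Cd40 they were Ccnd1, which encodes cyclin D1, and Shtn1 (both 0.997) and Sash1 (0.996). For Ltbr they were Hk3 (0.997), a hexokinase, Acod1 (0.996), the enzyme that makes itaconate, and Cdc42ep2 (0.994). Tnfrsf1a had Atp6v0d1 (0.985) and Atp6v1a (0.983), both subunits of the vacuolar proton pump, and Pilrb1 (0.980). The less regular profiles had lower maxima: Tnfrsf9 had Reps1 (0.978), Rasgef1a (0.936) and Myo3b (0.922), Fas had Zfp281 (0.962), Il4ra (0.960) and H2-T24 (0.959), and Tnfrsf1b had Usp46 (0.874), Snx18 (0.871) and Ksr1 (0.858).

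The ligands of these receptors were read on the same arrays, and 7 of 8 passed the F test over 9 populations, where 39.0% of all genes did, with a median range of 3.31 over the 8 and 0.71 over all genes. Cd40lg, the helper signal to Cd40, had mean levels of 9.73 in NKT, 9.69 in T4, 7.71 in Treg and 7.28 in Tgd, and at most 5.73 elsewhere. It was thus high in cells where Cd40 was low, and Treg had less of it than T4, by 1.98 ± 0.13 (limma adjusted p 5.36e-08). Fasl, the ligand of Fas, had its highest mean levels in NK (11.21) and NKT (10.91), where Fas was low, and at most 8.09 elsewhere. It was higher in NK than in T8 by 4.53 ± 0.20 (adjusted p 1.52e-11), in the comparison where Fas was lower in NK.

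Tnf itself was highest in DC (10.68) and GN (10.48) and lowest in MF (7.50), although MF had one of the higher levels of both TNF receptors. From DC to MF, Tnf fell by 3.18 ± 0.22 (limma adjusted p 1.88e-09) and Ltb fell by 2.70 ± 0.18 (2.02e-09). Ltb, which anchors lymphotoxin to the membrane, read 10.24 to 10.99 in NKT, T4, T8, Tgd and Treg. Its means were 9.75 in GN and 9.49 in DC, above the 8.68 of NK, and 6.78 in MF. Lta had its highest mean in Treg (8.61) and Tnfsf9, the ligand of 4-1BB, in DC (7.58).

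Tnfsf14, which binds Ltbr, was highest in GN (10.35), also the highest population for Ltbr, and next in NKT (9.65). It was higher in GN than in DC by 2.34 ± 0.13 (limma adjusted p 1.02e-10). Cd70, the ligand of Cd27, had population means of 5.94 to 6.42, below the table median, and did not pass. Fasl in T4 differed between arrays, with an SD of 0.65, and its call between T8 and T4 (-1.27) was lost without T4 replicate 3 (-0.82).

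**Figure D3:**
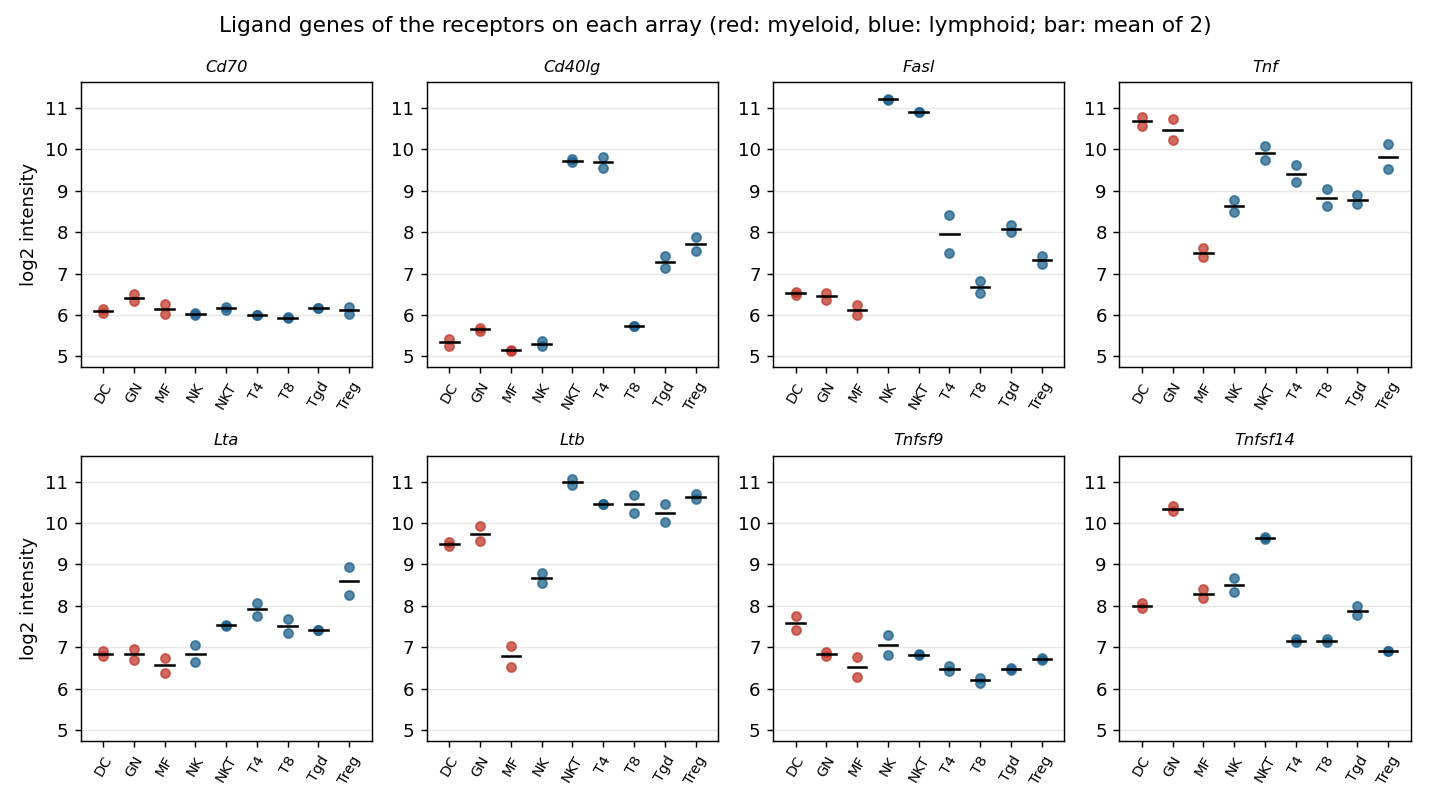
Log2 intensity (vertical axis) of the 8 ligand genes in 9 populations (horizontal axis), with a point for each array, a bar for the mean of 2 arrays, red for myeloid and blue for lymphoid populations. Cd40lg peaks in NKT and T4, Fasl in NK and NKT, Tnf in DC and GN, and Tnfsf14 in GN, while Cd70 lies between 5.93 and 6.50 on all arrays.

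Of the 21 other receptor genes of the superfamily measured, 12 passed the F test over 9 populations (39.0% of all genes) and 8 that over lymphoid cells (9.95%). Their median range over 9 populations was 1.28, less than the 3.57 of the 7 receptors. The widest were Tnfrsf18 (GITR, 4.78), the decoy receptor Tnfrsf23 (4.47), Tnfrsf21 (death receptor 6, 4.14) and Tnfrsf4 (OX40, 3.81). Between Treg and T4, Tnfrsf4 was higher in Treg by 1.65 ± 0.14 (limma adjusted p 6.99e-07) and Tnfrsf18 by 1.31 ± 0.20 (0.000477), beside the 1.51 of Tnfrsf9. All 3 are costimulatory receptors.

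In the myeloid against lymphoid comparison, 3 of the 21 were higher in myeloid cells, as were 4 of the 7 (6.39% of all genes). Of the 21, 3 were lower (4.41% of all genes). The higher ones were Tnfrsf21 (3.10 ± 0.11), Tnfrsf23 (2.22 ± 0.09) and Tnfrsf11a (RANK, 1.18 ± 0.07). Mean Tnfrsf11a was 8.70 in DC and 8.18 in MF, but 6.88 in GN, as in NKT (6.88). For Tnfrsf23, DC replicate 1 (6.91) lay below both Tgd arrays (7.02 and 7.21). Among the lower ones Tnfrsf18 differed by -1.77 ± 0.10 and Tnfrsf25 (death receptor 3) by -1.46 ± 0.07. Neither split the populations cleanly. Mean Tnfrsf18 was 7.07 in MF and 9.23 in DC but 10.67 in GN, above T4 (10.54), Tgd (10.11) and T8 (9.92). Tnfrsf25 was as low in NK (7.53) as in GN (7.55). Tnfrsf23 was highest in GN (10.88), as Fas, Ltbr, Tnfrsf1a and Tnfrsf1b were, and exceeded DC there by 3.56 ± 0.18 (limma adjusted p 4.04e-11).

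**Figure D4:**
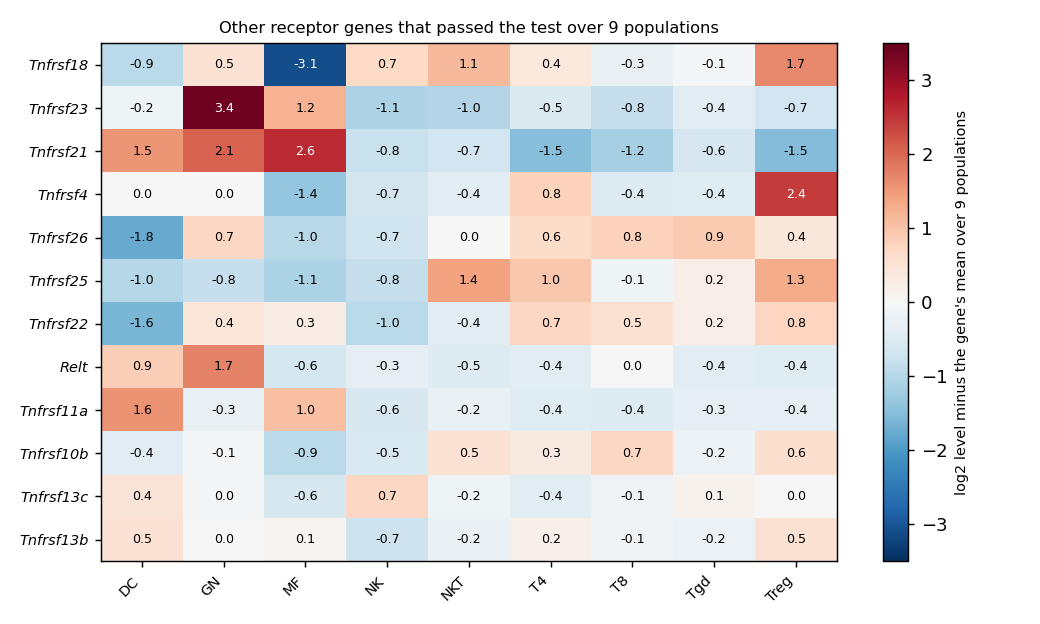
Log2 level minus the gene's mean over 9 populations (colour and printed value) for the 12 other receptor genes that passed the F test, with genes in rows and populations in columns. Tnfrsf4 and Tnfrsf18 have their highest values in Treg and Tnfrsf23 in GN, as Tnfrsf9 and Fas do among the 7 receptors.

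The proteins that carry the signal inward were read too. Of 15 measured TRAF, death domain and cell death adaptor genes, 11 passed the F test over 9 populations (39.0% of all genes) and 3 that over lymphoid cells (9.95%), with a median range of 1.17 over 9 populations. Traf1, an adaptor of receptors such as 4-1BB, had the widest range (4.72): its means were 10.98 in DC and 9.66 to 10.35 in lymphoid cells but 6.26 in GN and 6.28 in MF. It fell from DC to GN by 4.72 ± 0.15 (limma adjusted p 1.36e-13), the populations between which Fas, Ltbr and Tnfrsf1a rose. Mlkl, the executor of necroptosis, ran the other way, with 10.21 in MF, 9.41 in GN and 5.82 in T8, and was higher in myeloid than in lymphoid cells by 2.61 ± 0.12 (2.33e-12). Its means in DC (8.19) and NK (7.84) were close, and the arrays of these populations overlapped. The DC arrays of Mlkl read 7.70 and 8.67 (SD 0.69), and GN over DC (1.23) was 0.74 and under 2-fold without DC replicate 1. That fit kept only DC replicate 2, the array with the higher granulocyte markers. Replicate 1 lay farther below GN than replicate 2 did. Traf4 (range 1.97) and Traf5 (1.84) were highest in T8 and in T4, in that order.

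Of 9 measured NF-kB pathway genes, 7 passed over 9 populations (39.0% of all genes) and 1, Bcl3, over lymphoid cells (9.95%). Between myeloid and lymphoid cells 0 passed by limma, with 7 at an unadjusted p under 0.05. From DC to MF, 4 of 9 fell (4.97% of all genes) and 0 rose (5.89%): Relb by 2.63 ± 0.12, Rel by 1.98 ± 0.11 and Nfkb2 by 1.70 ± 0.11, and also Map3k14, the kinase of the noncanonical pathway that Ltbr and Cd40 use. Relb and Nfkb2 are the subunits of that pathway. The 4 calls stood without DC replicate 2.

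Of 8 genes that restrain NF-kB, 7 passed over 9 populations (39.0% of all genes) and 0 over lymphoid cells (9.95%) by limma, where 5 had an unadjusted p under 0.05. Tnfaip3 (A20) ranged over 3.19, Nfkbie over 3.14, N4bp1 over 2.28 and Tnip1 over 1.82. From DC to MF, 3 of the 8 fell (4.97% of all genes) and 0 rose (5.89%), among them Nfkbie, which fell by 3.14 ± 0.12 (limma adjusted p 9.29e-13), and Tnfaip3, which fell by 2.35 ± 0.38 (7.37e-05). In the same comparison the median over the 7 receptors was 0.29, against -0.63 over the NF-kB genes, -0.94 over their restrainers and 0.01 over all genes. Immediate early genes, which respond within minutes to stimulation or handling, moved with the NF-kB genes, their restrainers and Tnf between DC and MF. Of these, 9 of 16 fell from DC to MF and 0 rose, and their summed log2 level was 14.66 and 15.12 in DC and 13.40 and 13.85 in MF. In GN that sum was 14.99 and 15.29. From DC to GN, Relb (-1.95), Rel (-1.34) and Nfkbie (-1.84) were called lower (11.1% of all genes). Otud7b (1.11) and N4bp1 (1.12) were called higher (5.77%). The part of immediate early genes in the falls from DC to MF was not tested.

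Tnfaip3 differed between arrays of 1 population, at 9.34 and 10.36 in T4 and 9.28 and 10.73 in T8. Replicate 3 was the higher in NK, T4, T8, Tgd and Treg, and the lower in MF. The summed immediate early genes moved with Tnfaip3 in T4, from 13.17 to 14.09, and in T8, from 12.95 to 13.98, and their part was not tested. Its range over lymphoid cells was 0.98 (limma adjusted p 0.346), and without T8 replicate 3 it was 1.55 and passed (0.0263).

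**Figure D5:**
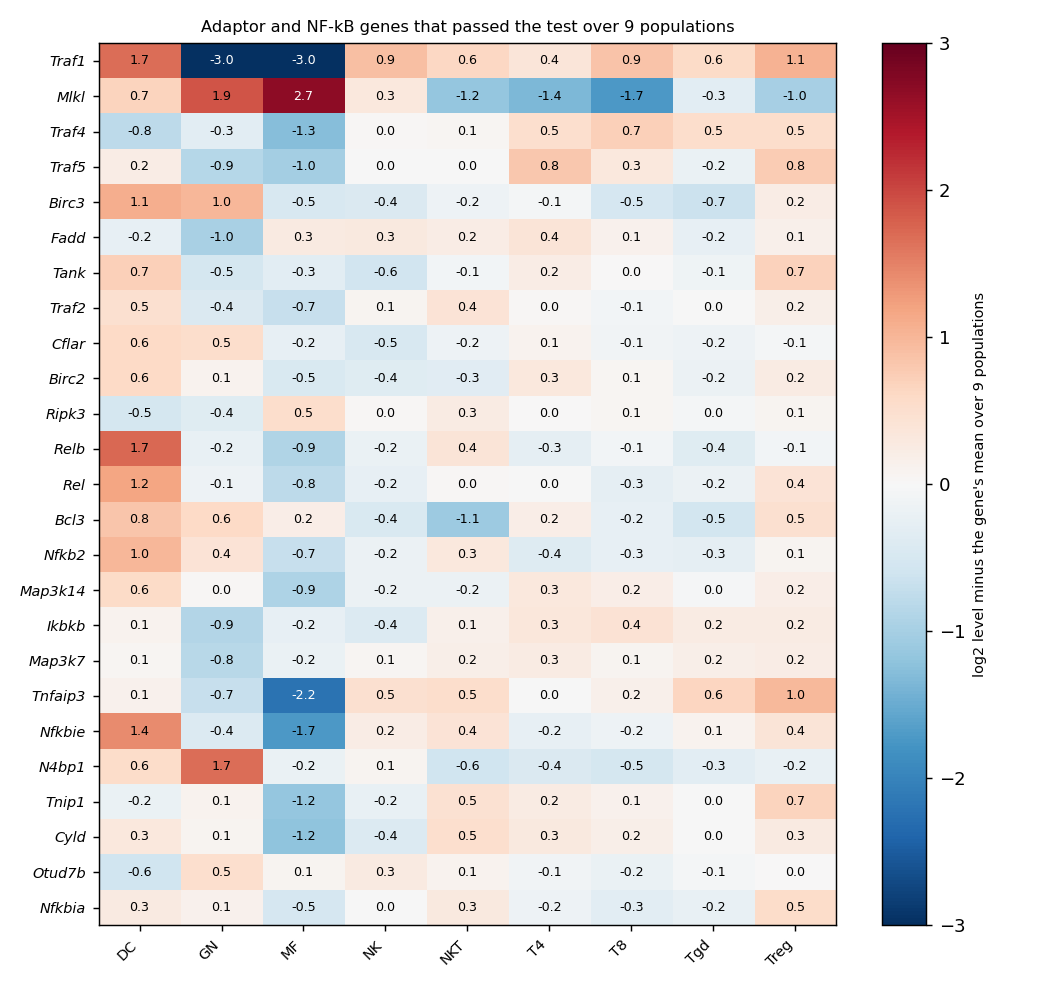
Log2 level minus the gene's mean over 9 populations (colour and printed value) for the adaptor, NF-kB and NF-kB restraining genes that passed the F test, with genes in rows and populations in columns. Traf1 is low in GN and MF and Mlkl high there, and Relb, Rel, Nfkb2 and Nfkbie are highest in DC.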

How the data were processed

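RNA of 9 sorted populations, grouped by title, was hybridised to 18 Mouse Gene 1.0 ST arrays (Affymetrix). The deposited values are linear intensity values that the authors made with Affymetrix Power Tools and RMA, per the submitters' processing notes; versions and genome build are not given in the sources used here. Of the probe sets, 21425 carried 1 gene symbol in the platform annotation, 1399 several and 2098 none, and 21347 were renamed through Entrez IDs against RefSeq (GRCm38.p6). A gene was represented by its brightest probe set.

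Log2 values of all 18 arrays were fitted with limma 3.58.1 in R 4.3.3, with 1 mean per population and empirical Bayes with a trend, leaving 9 residual degrees of freedom. Moderated F tests, 10 contrasts and 36 pairs were adjusted over 19752 genes; the code was tested on simulated data. All receptors, all ligands, the 4 widest genes of each other list and up to 3 per contrast are named. The receptors and lists were chosen with earlier results of these data known. Alternatives changed the normalization, trend, filter, pseudocount, probe set rule, block and arrays used. Traf3, Ripk1, Chuk and Nfkb1 had no probe set of their own and were not analysed here. The number of arrays limits the precision.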

Additional observations from a re-analysis of the deposited data

How the results depend on the processing

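The counts of receptors that passed kept within 1.5 times of the values reported under the alternatives run, except in 2 cases: MF against DC, where 1 passed and leave-one-out fits gave 1 to 2 (2 without DC replicate 2), and Tgd against T4 and T8, where 1 passed and quantile normalization gave 2. Counts over all genes stayed within that range throughout. Replicate numbers were not taken as pairing the arrays, since not every pair correlated: 19 of 54 same-numbered pairs of arrays from different populations had deviations that correlated over 0.1, and 13 of 18 arrays correlated best with an array of their own number. With 2 arrays per population, a gene's 2 deviations mirror each other. Where 2 populations share both numbers the same r therefore repeats, so these counts are not of independent pairs. Among NK, T4, T8 and Treg every same-numbered pair correlated over 0.1, at 0.127 to 0.468, a hint from the data that their numbers may be shared. With the replicate block, 7 receptors passed the F test over 9 populations and 6 differed between myeloid and lymphoid cells, as without it, and no receptor's call changed. Over single receptors, 2216 values kept their direction and their side of the limits, 6 lost and 6 gained the call, and 19 changed sign, none of them a called difference. The sign changes, whose cause was not tested, were these log2 differences. After quantile normalization, GN minus DC gave 0.045 for Tnfrsf9, T8 minus T4 gave 0.023 for Cd40, and NKT minus NK gave -0.0081 for Cd40 and -0.0054 for Ltbr. With arrays centred on their medians, T8 minus T4 gave 0.023 and NKT minus NK -0.016, both for Cd40. With the replicate block, NKT minus NK gave 0.070 for Tnfrsf1a. In leave-one-out fits, Treg minus T4 ran from -0.040 to 0.24 for Cd27. T8 minus T4 ran from -0.18 to 0.030 for Cd27, -0.097 to 0.091 for Cd40 and -0.16 to 0.085 for Ltbr. NKT minus NK ran from -0.15 to 0.21 for Cd40, -0.17 to 0.082 for Tnfrsf1a and -0.17 to 0.29 for Ltbr, and NK minus T8 ran from -0.052 to 0.41 for Ltbr. Refitting every pair with DC without DC replicate 2 was chosen after seeing the data. Signals near the table median, as for Ltbr and Cd40 in lymphoid cells and Cd27 in myeloid cells, limit what can be ordered there. The fit on only the arrays compared does not apply to the F tests or to myeloid against lymphoid.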
